A study of Drosophila melanogaster with 2 samples.

Results

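A set of 65 genes that the deposited table lists only by a CG number, and places outside the arms of chromosome 3, gave at least 2-fold less signal in heph2 mutant males than in Control males. The genes were chosen by the deposited expression values themselves. A member had a CG number as its name and a locus on neither 3L nor 3R. It was above 0 in both libraries, averaged 1 FPKM or more over both, and had a log2 ratio of heph2 to Control of -1 or less. FPKM counts sequenced fragments scaled to the length of the transcript and the number of mapped reads, so it is a level per length. The table held 14794 genes. Of these, 4475 had a CG number and lay outside 3L and 3R, and 3840 of them met the conditions on level and were compared. The 65 members were 1.69% of these 3840 genes. Because the ratio chose the members, their low ratios are a description and carry no test.

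The data were polyadenylated RNA of whole adult male Drosophila melanogaster, collected 1 to 3 days after eclosion. One library came from heph2 homozygotes and the other from Control males. Control males were heph2/TM3, so they carried the same mutant allele on 1 chromosome 3 and the balancer TM3, a rearranged chromosome 3 that is kept from recombining, on the other. Their chromosome 3 was therefore not that of a wild-type stock, and both genotypes shared the heph2 allele, a P element insertion in heph. Each genotype had 1 library, so no difference has a replicate check. In whole flies, fewer cells of a type and less RNA per cell cannot be told apart.

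heph encodes the fly polypyrimidine tract-binding protein, which binds pyrimidine-rich stretches of RNA and acts in splicing. Males without its male germline form are sterile, with a defect in the step that separates spermatids from each other. CG numbers are given to genes predicted from the genome sequence, and a gene keeps its number until work on its function gives it a name. Adult males hold several tissues with large numbers of such genes, among them the testis and the accessory gland, a secretory organ that makes most of the proteins transferred with sperm.

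heph itself had 27.2 FPKM in heph2 and 44.0 FPKM in Control, a log2 ratio of -0.69 over the whole gene. This ratio does not separate the parts before and after the P element insertion. The authors report that reads fell steeply beyond the insertion in heph2 homozygotes, with most transcripts truncated. Eggshell and yolk genes, markers of female tissue, stood apart between the libraries. Of 12 eggshell genes compared, 9 were at least 2-fold lower in heph2 and none was at least 2-fold higher. All 18 eggshell genes in the table summed to 16.6 FPKM in heph2 and 230 FPKM in Control. Cp7Fc and Vm26Ac, which encode a chorion and a vitelline membrane protein, were listed at 0 in heph2. The 3 yolk protein genes summed to 14.7 FPKM in heph2 and 114 FPKM in Control. Over the genes compared, the other female lists differed less. For 17 female germline genes the median log2 ratio was -0.16, and 2 were at least 2-fold lower. For 2 spermatheca genes it was -0.14. With no minimum FPKM these medians were -0.22 and -0.51. Whether these lists measure female tissue in whole males was not tested, since some of their genes were high in both libraries. The germline gene exu had 425 FPKM in heph2 and 378 FPKM in Control. CG18067 of the spermatheca list had 912 FPKM in heph2 and 1207 FPKM in Control. Female germline genes under the minimum level were all lower in heph2, among them osk, with 0.0247 FPKM in heph2 and 1.76 FPKM in Control. The part of female tissue in the member list was not tested. The eggshell, yolk and female germline markers have names, so the rule could not make them members. Their absence from the list therefore says nothing on this, and only 2 spermatheca genes were compared. FPKM values hold no read counts. The value that 1 read gives on 1 kilobase was worked out from the low values as 0.0331 FPKM in heph2 and 0.0214 FPKM in Control. Reads behind a member were estimated from these steps and the median transcript length, for the 57 members with a transcript length.

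The members made up a small share of the RNA. Their FPKM summed to 1230 in heph2 and 3200 in Control, which was 0.0887% of all FPKM in heph2 and 0.281% in Control. The median member had 2.60 FPKM in heph2 and 8.12 FPKM in Control, against 19.9 FPKM in heph2 and 18.8 FPKM in Control for the other 3775 unnamed genes compared. Most of the summed difference came from few genes. The 10 members highest in Control summed to 937 FPKM in heph2 and 2472 FPKM in Control, and the other members together to 292 FPKM in heph2 and 728 FPKM in Control. The median log2 ratio of the members was -1.27, beside 0.06 for all unnamed genes outside chromosome 3 and 0.01 for all 11962 genes compared. Of the 65, 48 lay between -1.5 and -1 on the log2 scale, and 4 were at least 4-fold lower.

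**Figure D1:**
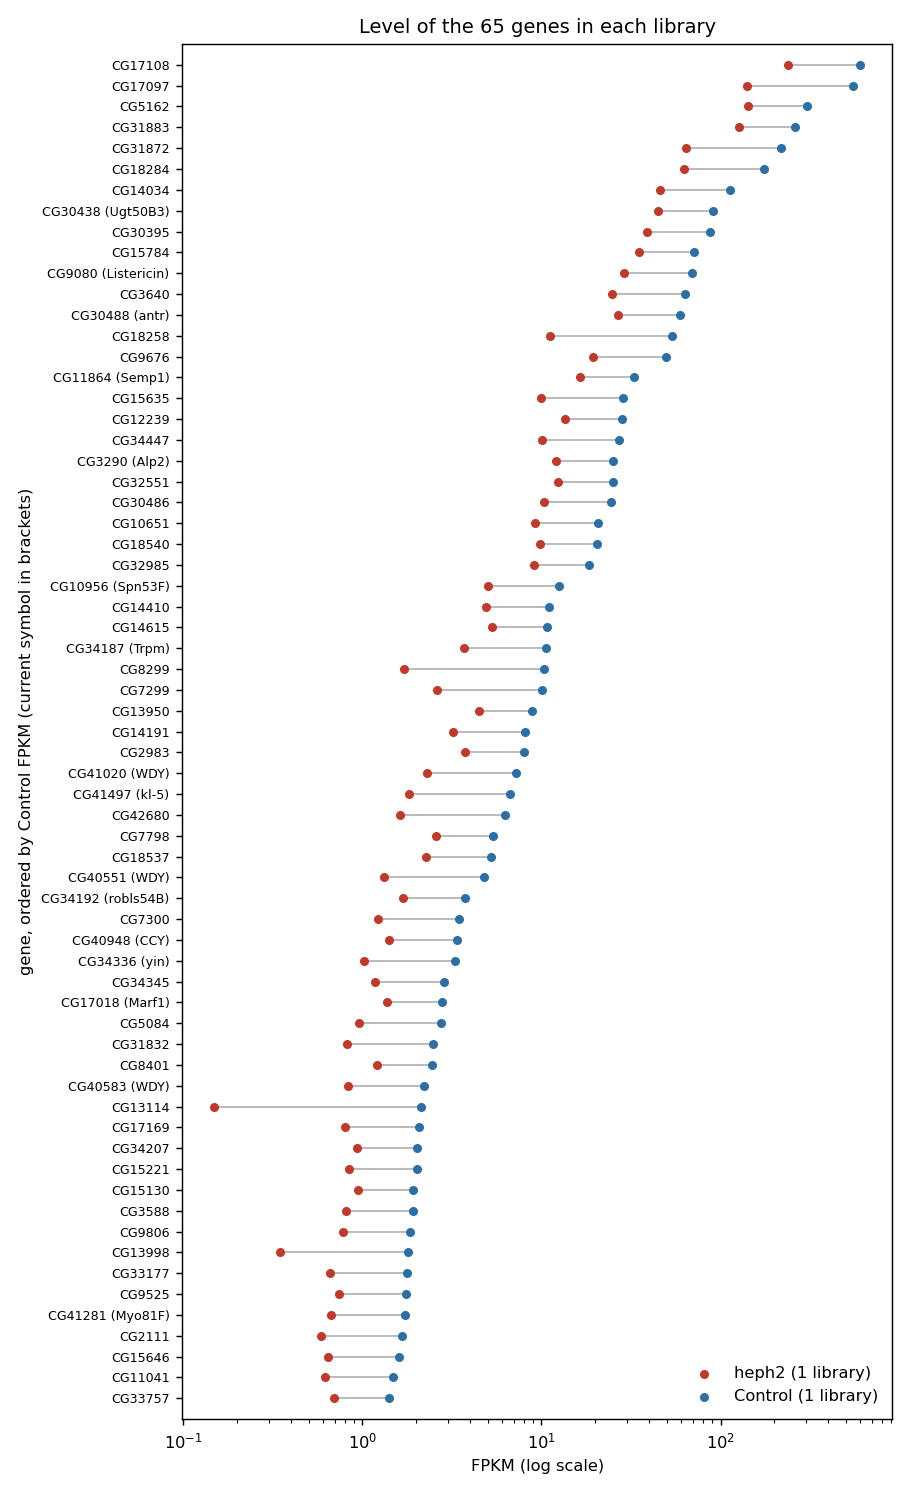
FPKM of each of the 65 genes in the single heph2 library (red) and the single Control library (blue), on a log scale, ordered by Control FPKM, with the current symbol in brackets where it differs. Levels run from 0.149 to 237 FPKM in heph2 and from 1.41 to 602 FPKM in Control, and CG13114 has the widest gap.

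Unnamed genes outside chromosome 3 were past 2-fold in the other direction more often. There were 105 genes at least 2-fold higher in heph2, or 2.73% of the same 3840. This order depended on the scaling. It stayed when ratios were centred on the median of all genes compared, with 65 lower and 102 higher genes. It turned to 96 lower and 53 higher genes when ratios were centred within transcript length classes. Centring on the ribosomal protein genes gave 254 lower and 29 higher. Among all genes outside chromosome 3 without a CG number, 56 of 2881 were at least 2-fold lower, or 1.94%. Among unnamed genes on chromosome 3, 115 of 3071 were at least 2-fold lower, or 3.74%. Over all genes compared, the shares past 2-fold were 2.44% downward and 2.79% upward. The share that gave the 65 members was thus the lowest of these, and no test was made of the difference between the shares.

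The steepest decreases were of unlike genes with unlike depth behind them. CG13114 (FBgn0032127, 2L:9545811-9547424) had 0.149 FPKM in heph2 and 2.12 FPKM in Control, a log2 ratio of -3.83. This was the only member below -3, and it rested on about 5.98 reads in heph2 and 132 reads in Control. The 95% counting interval of its log2 ratio ran from -5.30 to -2.67, and like all intervals here it covers counting error only. CG8299 (2R:11828206-11828988), which RefSeq also lists as SP65, had 1.70 FPKM in heph2 and 10.4 FPKM in Control, a log2 ratio of -2.61 with a counting interval from -3.14 to -2.09.

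Low counts set the value of CG13998 (2L:5956512-5956805), a gene for a protein of 97 amino acids. It had 0.348 FPKM in heph2 and 1.80 FPKM in Control, or about 1.46 reads against 11.7 reads. The log2 ratio of -2.37 had a counting interval from -8.38 to -0.20, so a decrease of less than 2-fold lay within counting error. Among the 57 members with estimated reads, no other had 3 or fewer in heph2. CG42680, the member with the shortest protein at 60 amino acids, was alike in this. It had 1.61 FPKM in heph2 and 6.26 FPKM in Control on 4.16 and 24.9 reads, and its interval ran from -4.00 to -0.48 around -1.96.

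CG18258 (X:17106361-17108010) had the most reads of the 4 members that were at least 4-fold lower. It had 11.1 FPKM in heph2 and 53.3 FPKM in Control, a log2 ratio of -2.27 on 435 reads in heph2 and 3225 reads in Control, with an interval from -2.41 to -2.12. CG15635 on 2L, which encodes a protein of 1136 amino acids, had 9.90 FPKM in heph2 and 28.5 FPKM in Control, a log2 ratio of -1.53. Levels under 3 FPKM in Control stood behind CG31832, at 0.820 FPKM in heph2 and 2.48 FPKM in Control, and CG5084, at 0.954 FPKM in heph2 and 2.74 FPKM in Control.

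The counting interval lay wholly at -1 or below for only some members, depending on depth and on how far the ratio lay from -1. These intervals come from the same values that chose the members and make no allowance for that choice. They describe depth and are no test of a decrease. Of the 57 members with estimated reads, 21 had a counting interval wholly at -1 or below, and 36 had one that reached above -1. For CG11041, CG15130 and CG33757, chosen here after their values were seen, the interval reached above 0. These 3 genes had between 6.31 and 10.2 estimated reads in heph2. In all, 27 members rested on 100 reads or fewer in heph2, and the median member on 125 reads in heph2 and 404 reads in Control.

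**Figure D2:**
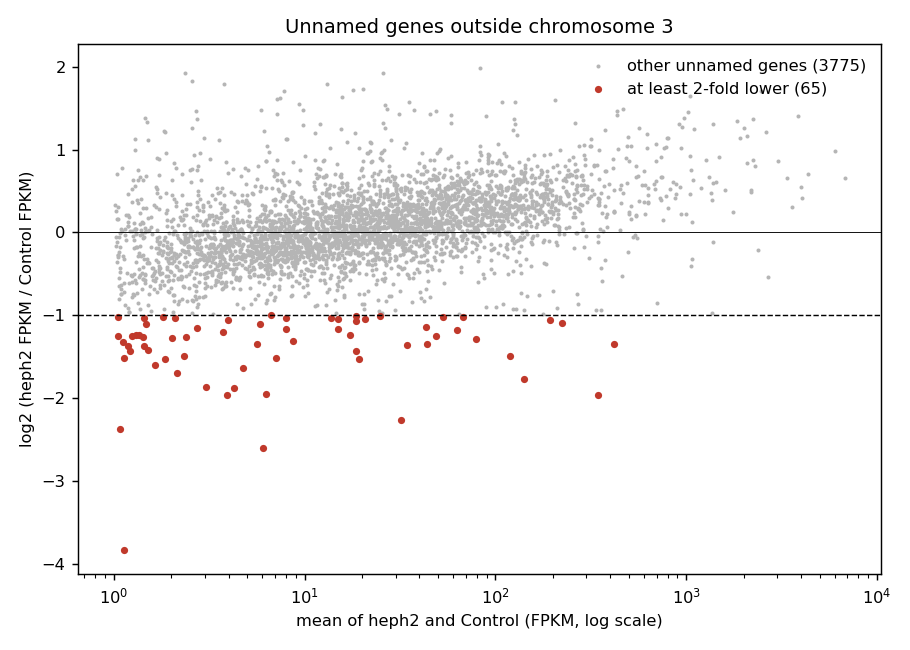
Log2 ratio of heph2 FPKM to Control FPKM against the mean of both (log scale) for the 3840 unnamed genes compared outside chromosome 3, with the 65 members in red and the threshold of -1 dashed. Members lie along the range of levels up to CG17108, at a mean of 419 FPKM, and the other genes drift upward with level.

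Of the 10 most abundant members, 9 have no name in the current annotation, the exception being CG30438. CG17108 (2L:10692940-10694103) was the highest, with 237 FPKM in heph2 and 602 FPKM in Control, a log2 ratio of -1.35. CG17097 (2L:10646435-10650152) followed with 141 FPKM in heph2 and 550 FPKM in Control, and its ratio of -1.96 was the lowest among the 10 most abundant. CG5162 had 142 FPKM in heph2 and 304 FPKM in Control, a ratio of -1.10. These 3 genes rested on at least 5390 estimated reads in heph2, so their counting intervals were narrow, from -1.99 to -1.94 for CG17097.

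CG31883, with 126 FPKM in heph2 and 262 FPKM in Control, and CG14034, with 46.1 FPKM in heph2 and 112 FPKM in Control, were of the same order. CG30395 had 38.6 FPKM in heph2 and 87.1 FPKM in Control. CG15784 was just past the threshold, with 35.1 FPKM in heph2 and 71.3 FPKM in Control. All 4 are known by their CG number alone.

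Members often lay beside other members. By the bounds of their locus entries, 18 of the 65, or 27.7%, lay within 10 kb of another member. Of the other 3775 unnamed genes, 122, or 3.23%, lay within 10 kb of a member. The 18 genes formed 8 neighbourhoods, 4 of them on 2L. Positions are in the coordinates of release 5 of FlyBase. Both shares are descriptions, since neighbours can share reads or a locus entry. Genes that share a locus entry were counted as 0 kb apart. CG18537, CG18540, CG2111 and CG31883 share entries with other genes, so the distances between the genes themselves were not measured for them. This holds for the pairs CG18537 and CG18540, CG9806 and CG2111, and CG31883 and CG13114.

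The largest of these by level held 3 members and no other gene. CG31872, CG18284 and CG17097 filled 10.2 kb at 2L:10639946-10650152, all on the plus strand. CG31872 had 64.3 FPKM in heph2 and 218 FPKM in Control, a log2 ratio of -1.76. CG18284, for which RefSeq lists the alias Acp, had 62.4 FPKM in heph2 and 175 FPKM in Control, a ratio of -1.49. Together with CG17097 they summed to 268 FPKM in heph2 and 943 FPKM in Control. These 3 genes gave 21.8% of the FPKM of all 65 members in heph2 and 29.5% in Control. Their proteins had 1073, 457 and 1087 amino acids.

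Further along 2L stood a second group of 3 members, on the minus strand. CG7299, CG17108 and CG7300 lay within 14.3 kb at 2L:10683761-10698024. CG7299, with a protein of 177 amino acids, had 2.60 FPKM in heph2 and 10.01 FPKM in Control, a ratio of -1.94. CG7300 had 1.22 FPKM in heph2 and 3.44 FPKM in Control, a ratio of -1.49. The decrease was not shared by the whole stretch. CG7296, which lies between CG7299 and CG17108, had 43.0 FPKM in heph2 and 35.2 FPKM in Control, a ratio of 0.29, and CG7294 was under the minimum level.

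**Figure D3:**
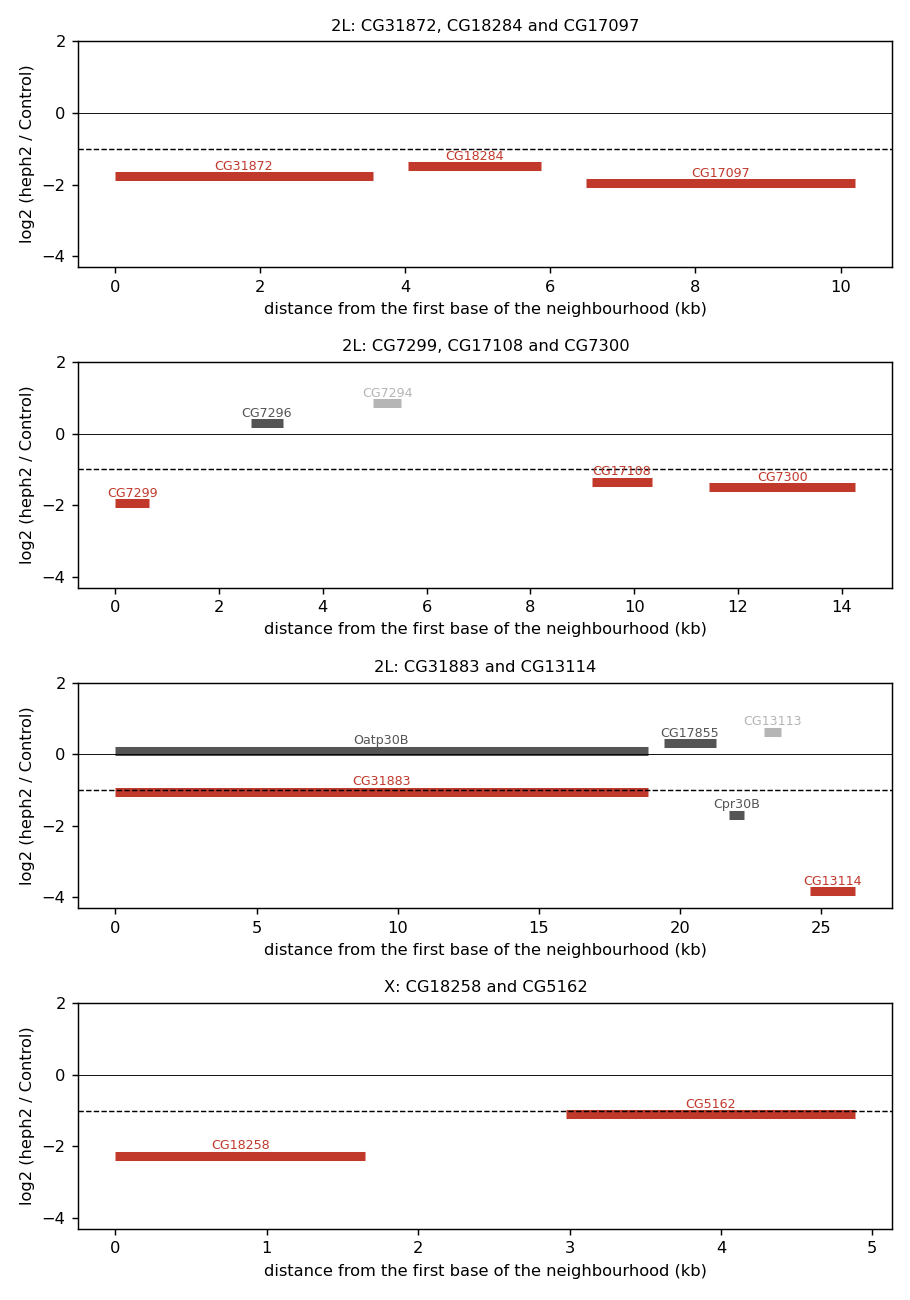
Log2 ratio of heph2 to Control FPKM (y axis) for the genes of 4 neighbourhoods, drawn as bars along the distance in kb from the first base of the neighbourhood, with members in red, other genes compared in dark grey and genes with a mean FPKM under 1 in light grey. All 3 genes of the top stretch lie below the dashed threshold of -1, while CG7296 and Oatp30B lie above 0 between or upon members.

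The other neighbourhoods were pairs. CG18258 and CG5162 were adjacent on the plus strand of the X within 4.89 kb, with proteins of 468 and 411 amino acids, but differed in ratio, at -2.27 and -1.10. On 2R, CG30488 and CG30486 lay within 2.13 kb on the minus strand. CG30488 is now named antr, for antares, a cysteine-rich secretory protein of the seminal fluid that takes part in the female response to mating. It had 26.8 FPKM in heph2 and 59.3 FPKM in Control, a ratio of -1.15. Its neighbour CG30486 had 10.4 FPKM in heph2 and 24.4 FPKM in Control, a ratio of -1.24.

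CG9525, on the minus strand, and CG32985, on the plus strand, lay 0.263 kb apart within 4.31 kb of 2L. CG9525 had 0.736 FPKM in heph2 and 1.76 FPKM in Control, and CG32985 had 9.06 FPKM in heph2 and 18.5 FPKM in Control. CG9806 and CG2111 on the X encode proteins of 911 and 931 amino acids. CG9806 had 0.777 FPKM in heph2 and 1.84 FPKM in Control, and CG2111 had 0.584 FPKM in heph2 and 1.67 FPKM in Control. Both were near the minimum level, and CG12637, which shares the locus entry of CG2111, had a ratio of 0.52.

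A run of small genes on 2R stood close to the threshold as a group. CG18537 and CG18540 share 1 locus entry, 2R:14166570-14244766, with 7 other genes. CG18537 had 2.27 FPKM in heph2 and 5.22 FPKM in Control, a ratio of -1.21, and CG18540 had 9.81 FPKM in heph2 and 20.3 FPKM in Control, a ratio of -1.05. CG14502, CG18536, CG18538 and CG18539, with proteins of 182 to 191 amino acids like those of both members, had ratios of -0.51, -0.82, -0.75 and -0.96 and were not members. sbb and CG14505 in the same entry had ratios of 0.16 and 0.37. Sequence likeness among these small genes was not analysed here, so reads shared between near-identical copies cannot be told apart.

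CG31883 and CG13114 shared a stretch of 26.2 kb on 2L with genes that went both ways. CG31883 lies in the locus entry of Oatp30B, an organic anion transporter gene, which had 34.0 FPKM in heph2 and 31.9 FPKM in Control, a ratio of 0.09. Cpr30B, a cuticle protein gene between them, had 0.638 FPKM in heph2 and 2.06 FPKM in Control, a ratio of -1.70. CG17855 beside it had a ratio of 0.31.

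Current annotation gives names to a minority of the members. In RefSeq release 6 and the BDGP6 annotation, 57 of the 65 have an entry of their own, and 49 of these still go by a CG number. The other 8 of the 57 have a name. They are described here for their names, some of them outside the rule that chose the other genes named, and after their values were seen.

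Secreted proteins were among the named ones. Listericin (CG9080), an antibacterial peptide, had 29.0 FPKM in heph2 and 69.1 FPKM in Control, a log2 ratio of -1.25. Of 19 genes on the list of antimicrobial peptides, 1 was at least 2-fold lower and 6 were at least 2-fold higher, with a median of 0.80. Listericin thus lay on the other side of 0 from most of that list. Semp1 (CG11864), a seminal metalloprotease, had 16.4 FPKM in heph2 and 33.0 FPKM in Control, a ratio of -1.01. Spn53F (CG10956), of the serpin family of protease inhibitors, had 5.03 FPKM in heph2 and 12.5 FPKM in Control, and its exons overlap those of a gene on the opposite strand.

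Enzymes and other proteins made up the rest. Ugt50B3 (CG30438), a UDP-glycosyltransferase, had 44.5 FPKM in heph2 and 90.4 FPKM in Control, a ratio of -1.02. Alp2 (CG3290), an alkaline phosphatase, had 12.0 FPKM in heph2 and 25.1 FPKM in Control, a ratio of -1.07. robls54B (CG34192), of the roadblock family of dynein light chains, had 1.69 FPKM in heph2 and 3.76 FPKM in Control. Marf1 (CG17018), named for a role in meiosis and mRNA stability and with the longest protein of the members at 1305 amino acids, had 1.37 FPKM in heph2 and 2.79 FPKM in Control. The ratios of both were between -1.15 and -1.03.

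Among marker lists of the male reproductive tract, those of the accessory gland and seminal fluid were mostly lower in heph2. All 31 accessory gland genes on a list of named markers had a ratio below 0, with a median of -0.78, and 10 of the 31 were at least 2-fold lower. The list summed to 56399 FPKM in heph2 and 105356 FPKM in Control, and antr was its only member among the 65. Only CG30488 (antr), CG10586 and CG6555 stand on this list under a CG number, so the rule could not make the others members. That count therefore says nothing on the part of the accessory gland in the member list. Of 27 further seminal fluid genes, 26 were below 0, with a median of -0.57, and 3 were at least 2-fold lower. Over all genes compared, 2.44% were at least 2-fold lower. The 36 testis genes had a median of 0.23, which became -0.21 when centred on the ribosomal protein genes, and none was at least 2-fold lower without centring. Which of the unnamed members are made in the accessory gland was not tested.

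Lists of other tissues had medians on either side of 0. Gut digestive enzyme genes had a median of 0.38 over 43 rows, or -0.06 when centred on the ribosomal protein genes. Of these rows, 9 were at least 2-fold higher and 2 at least 2-fold lower. They include the row L, matched by a synonym to Mal-A3 beside the row LvpL. Fat body and larval serum genes had a median of 1.14 over 13 genes, 7 at least 2-fold higher and 2 at least 2-fold lower. Over all genes compared, 2.79% were at least 2-fold higher and 2.44% at least 2-fold lower. The 6 ejaculatory duct and bulb genes had a median of -0.31 and the 16 photoreceptor genes one of -0.35, and neither list had a gene past 2-fold. The 85 cytosolic ribosomal protein genes had a median of 0.44.

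Of the members, 8 are rows that no longer stand alone. The current annotation holds each of these 8 rows under the entry of another gene. Which part of that gene each row covers was not analysed here. CG40948, CG34187 and CG41281 are outside the rule that chose the other genes named and are given after their values were seen, to account for all 8. Of these, 5 are now on the Y chromosome, although the table puts them on the unplaced scaffold U. CG40551, CG41020 and CG40583 belong to WDY, a WD40 repeat gene, and CG41497 to kl-5, a dynein heavy chain that sperm tails need. CG40948 belongs to CCY, a coiled-coil gene. Genes of the Y chromosome are transcribed in the male germline, and several are needed for male fertility.

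CG41497 had 1.83 FPKM in heph2 and 6.71 FPKM in Control, a log2 ratio of -1.88. CG40551 had 1.32 FPKM in heph2 and 4.78 FPKM in Control, CG41020 had 2.30 FPKM in heph2 and 7.18 FPKM in Control, and CG40583 had 0.825 FPKM in heph2 and 2.21 FPKM in Control. These 3 rows of WDY had ratios of -1.86, -1.64 and -1.42, and the fourth WDY row, CG40245, had 2.11 FPKM in heph2 and 3.31 FPKM in Control, a ratio of -0.65. CG40948 had 1.40 FPKM in heph2 and 3.36 FPKM in Control, a ratio of -1.26.

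Other rows of the same genes did not all go this way. The row of kl-5 itself was under the minimum level and was not compared. It had 0.880 FPKM in heph2 and 0.869 FPKM in Control, a ratio of 0.02. For CCY, CG40968 had a ratio of -0.54, while CG42620 had 8.75 FPKM in heph2 and 5.67 FPKM in Control, a ratio of 0.63. WDY was thus the only one of these genes with every row below 0. Of 58 rows whose current entry is on the Y, 19 were compared, and their median ratio was -0.24 with a range from -1.88 to 0.63. Rows with a ratio but under the minimum level went both ways. They ran from -4.73 for ORY, with 0.0470 FPKM in heph2 and 1.25 FPKM in Control, to 1.36 for Su(Ste):CR42426. Among the 19, 6 were at least 2-fold lower and none was at least 2-fold higher. Over all genes compared, these shares were 2.44% and 2.79%. The 6 were the 5 members, which this same ratio chose, and Ppr-Y, which had 2.10 FPKM in heph2 and 5.01 FPKM in Control. Each of the 6 had a mean under 5 FPKM.

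**Figure D4:**
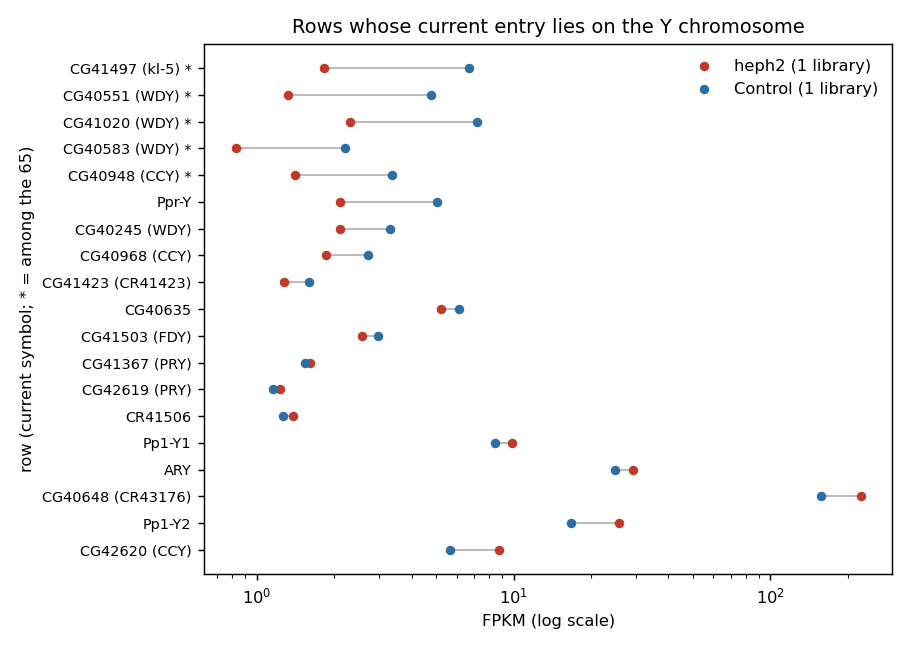
FPKM (log scale) in heph2 (red) and Control (blue) of the 19 rows compared whose current entry is on the Y chromosome, ordered by ratio, with members marked by an asterisk. The members and Ppr-Y have the widest gaps, and 8 rows at the bottom are higher in heph2.

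The other 3 such rows belong to genes elsewhere. CG34336 is now under yin on the X, an oligopeptide transporter gene. It had 1.02 FPKM in heph2 and 3.29 FPKM in Control, a ratio of -1.70, while the row of yin itself had 5.67 FPKM in heph2 and 8.25 FPKM in Control, a ratio of -0.54. CG34187 is now under Trpm, a cation channel of the TRP family on 2R, and had 3.68 FPKM in heph2 and 10.6 FPKM in Control, a ratio of -1.52. CG34123, the other row of Trpm, had 7.44 FPKM in heph2 and 9.87 FPKM in Control, a ratio of -0.41. In both genes the 2 rows thus differed in ratio.

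CG41281 stands at odds with the rule's aim. The table puts it on the heterochromatic scaffold 3RHet, which the rule did not leave out, and it is now under the myosin gene Myo81F on 3R. It had 0.665 FPKM in heph2 and 1.72 FPKM in Control, a ratio of -1.37. It was the only 1 of the 10 Myo81F rows that met the conditions for the comparison. The other 64 members lie outside chromosome 3 in both annotations.

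Members were spread over the large chromosomes at similar rates. They were 23 of 1310 genes on 2L, or 1.76%, 19 of 1353 on 2R, or 1.40%, and 16 of 1088 on the X, or 1.47%. None of the 26 genes compared on chromosome 4 was a member. On unplaced and heterochromatic scaffolds the share was higher, with 7 of 63 genes, or 11.1%. Of these 7, 5 are the Y-linked rows.

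Members were more frequent among scarce genes. Among genes with a mean of 1 to 2 FPKM, 19 of 242 were members, or 7.85%. The share was 2.40% from 2 to 5 FPKM, 1.40% from 5 to 20 FPKM, 0.868% from 20 to 100 FPKM and 0.974% at 100 FPKM or more. Genes at least 2-fold higher ran the other way at the top, with 47 of 616 genes, or 7.63%, at 100 FPKM or more. The median log2 ratio of all unnamed genes compared also climbed with level, with -0.25 at 1 to 2 FPKM and 0.40 at 100 FPKM or more. The part of this drift in the member list was not tested.

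**Figure D5:**
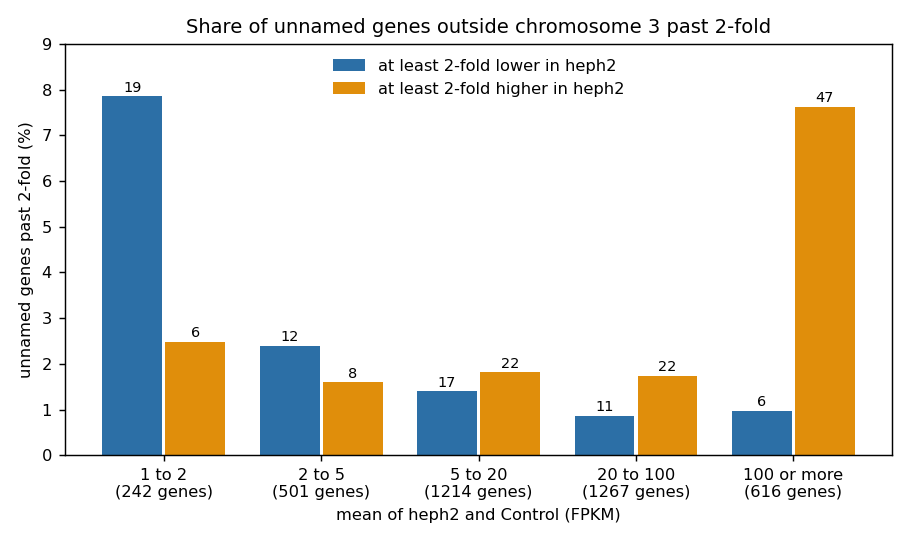
Percent of unnamed genes outside chromosome 3 that were at least 2-fold lower (blue) or higher (orange) in heph2, by the mean FPKM of both libraries, with the number of genes above each bar and the genes compared under it. Lower genes peak at 7.85% in the lowest bin and higher genes at 7.63% in the highest.

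Members had shorter transcripts than the other unnamed genes, which is given without a test. The median transcript was 1129 nucleotides for the 57 members with a length and 1506.5 nucleotides for the other 3636 unnamed genes with one. Transcripts of 1000 nucleotides or less made up 43.9% of the members and 28.2% of the others, and transcripts over 3000 nucleotides 7.02% of the members and 14.8% of the others. A single annotated transcript was listed for 64.9% of the members and 47.9% of the others, and at most 2 exons for 50.9% of the members and 40.5% of the others. The median protein had 316 amino acids among the members and 357 among the others.

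Short genes as a class were shifted upward in heph2. Unnamed genes with transcripts up to 1000 nucleotides had a median log2 ratio of 0.38, those over 1000 and up to 3000 nucleotides 0.03, and longer ones -0.22. Members made up 2.38% of the short genes, against 1.33% and 0.737% of both longer classes. When ratios were centred on the median of their length class, a step added after the data were seen, 96 genes were at -1 or less. They included 56 of the 57 members with a transcript length, and the other 8 members could not be centred.

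The threshold of -1 separated genes of almost equal ratio. Just inside it were CG11864 at -1.008, CG32551 at -1.004, with 12.4 FPKM in heph2 and 24.9 FPKM in Control, and CG13950 at -1.001, with 4.45 FPKM in heph2 and 8.90 FPKM in Control. Just outside were CG1701, with 43.5 FPKM in heph2 and 86.2 FPKM in Control, CG14195, with 2.23 FPKM in heph2 and 4.40 FPKM in Control, and CG34051, with 120 FPKM in heph2 and 236 FPKM in Control, at -0.99 and -0.98. The counting intervals of all 3 members just inside reached above -1.

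Genes left out by the conditions on level are part of the same account. A further 460 unnamed genes outside chromosome 3 were above 0 in both libraries with a mean under 1 FPKM, and 77 of these had a ratio of -1 or less. Another 70 were listed at 0 in heph2 only and 18 in Control only, and 87 at 0 in both. Of the members, 51 were alone in their locus entry and 14 shared it with other genes. Exons of 10 members overlap a gene on the opposite strand, and since the counting is not stated to use strand, reads of the 2 genes cannot be told apart there.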

How the data were processed

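RNA of whole adult males was sequenced by the authors as single reads of 50 bases, with 1 library of heph2 and 1 of Control (heph2/TM3), mapped with TopHat2 2.0.4 to FlyBase 5.44 and quantified with Cufflinks 2.0.0. The authors deposited 1 FPKM value per gene and library, and a column of their own log2 ratios, which was not used. Cuffdiff is also named in the submitters' processing notes.

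Log2 ratios of heph2 to Control were computed from the FPKM values with no pseudocount, in Python 3.11.15 with numpy 2.4.6, pandas 2.3.3 and scipy 1.17.1. With 1 library per genotype no test was made. The step that 1 read gives was read from the low FPKM values: 60.2% of 591 genes in heph2 and 60.7% of 494 genes in Control came within 0.1 of a whole number of reads, where chance gives 20%. Reads used a fragment length of 200 ± 80 bases, as assumed for single reads. The 95% counting intervals are exact binomial intervals. The depth of reads limits the precision of low genes.

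Locus starts are counted from 0 in the table and 1 was added: of 462 genes of 2L that share their end with BDGP6, 178 then had the same start and 2 had it without the addition. Names came from BDGP6 and RefSeq release 6, which matched 14604 of the 14794 genes. Sequences, protein likeness and promoter motifs were not analysed here.

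The members, marker lists and comparisons were chosen with earlier results of these data known. Genes named are the 15 lowest ratios, the 10 highest in Control, those at the threshold, those within 10 kb of another member, groups of at least 3 with the same current name, and those with 3 reads or fewer in heph2, with exceptions stated where they are given. Alternatives were a pseudocount of 0.1 or 1 FPKM, no minimum FPKM or one of 5 or 10, 2 centrings, only genes alone in their locus entry, and a threshold of -2. The scripts were tested on simulated data.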

Additional observations from a re-analysis of the deposited data

How the results depend on the processing

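The count of 65 genes changed with the threshold, the minimum level and the scaling. With a pseudocount of 1 FPKM 33 genes were at -1 or less, with no minimum 142, with a minimum mean of 5 FPKM 34 and of 10 FPKM 25. Centring on the cytosolic ribosomal protein genes, which shifts ratios by 0.44, gave 254 lower and 29 higher genes, against 65 and 105 without it. Centring on the median of all genes compared gave 65 lower and 102 higher genes. At a threshold of -2 there were 4 genes. The next 3 alternatives were added after the data were seen. Keeping only genes with more than 100 estimated heph2 reads left 30, leaving out the unplaced and heterochromatic scaffolds left 58, and centring within transcript length classes gave 96 lower and 53 higher genes. With a pseudocount of 0.1 FPKM 59 genes remained and among genes alone in their locus entry 51. Of the 36 named members, 23 stayed at -1 or less with a pseudocount of 1 FPKM, where the highest was -0.67. The median of the eggshell list was -2.48 with a pseudocount of 1 FPKM and -4.48 with no minimum. No paired analysis was possible because each genotype had 1 library. Depth limited the ratios of the 27 members with 100 reads or fewer in heph2.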

Other observations

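Among unnamed genes outside chromosome 3, 2 with a mean of at least 1 FPKM were listed at 0 in heph2, have no ratio and are not members. CG10936 was listed at 0 in heph2 and had 10.4 FPKM in Control, or about 2504 estimated reads. CG18186, now named Oxp, was listed at 0 in heph2 and had 4.77 FPKM in Control, or about 38.7 reads. Both share 1 locus entry, 2R:13492456-13526639. Tango8, in the locus entry of CG18537 and CG18540, was likewise listed at 0 in heph2, with 2.36 FPKM in Control. All 3 genes lie in locus entries that hold several genes, and reads behind a value of 0 were not analysed here.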
